A study of Drosophila melanogaster with 4 samples.

Results

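The dpr genes (defective proboscis extension response) and the DIP genes (Dpr-interacting proteins) of Drosophila melanogaster were followed through the cells of the embryonic gonad. All genes whose symbol in the gene list was dpr followed by a number, or began with DIP-, were taken, which gave 21 dpr and 11 DIP genes. These 32 genes were found among the 13947 genes of the single-cell RNA-seq (scRNA-seq) list and again among the 17807 genes of the nuclear RNA list. The study profiled germ cells and gonads of embryos that carry vas-GFP, a transgene in which the germline gene vasa drives green fluorescence, and it sorted them by that fluorescence. One scRNA-seq library held sorted germ cells of embryos aged 0 to 8 h. It came from an earlier experiment of the authors and is labelled as a re-analysis. The other pooled germ cells sorted at 8 to 12 h with gonads sorted at 12 to 20 h and then dissociated. A multiome library held nuclei pooled over 0 to 20 h, in which nuclear RNA and open chromatin (ATAC) were read from the same nucleus. All groups shared the vas-GFP genotype, the labels named no other treatment, and the sort was on germline fluorescence, so somatic cells were present only as far as they came with the gonads or passed the sort.

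Dpr and DIP proteins are small cell surface proteins of the immunoglobulin superfamily, and most are known from neurons of the fly. Each Dpr binds a limited set of DIPs on an apposed cell, and these pairs are used in synaptic partner choice, in the survival of some neurons and in the layering of axon terminals. Somatic gonadal precursors (SGPs) are mesodermal cells that ensheath the germ cells when the embryonic gonad forms, and they give rise to the support cells of the ovary and the testis.

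Cells were grouped with the 32 genes taken out of the clustering, so that none of them helped to define the class in which it is described, and classes were named by marker genes. The 8- to 20-h library held 5692 SGP-like cells, 325 neuron-like cells, 1439 cells of other somatic classes (845 muscle-like, 217 glia-like, 107 hemocyte-like and 270 epidermis-like) and 3932 germ cell-like cells, while 1181 cells stayed unnamed. The 0- to 8-h library held 3333 germ cell-like cells. By their correlation with the SGP nuclei of the study, 2818 SGP-like cells were matched to female SGPs (FSGP), 186 to anterior male SGPs (aMSGP), 1881 to posterior male SGPs (pMSGP) and 243 to male-specific SGPs (msSGP), and 564 were matched to no subtype. Markers fitted the names of the broad classes. Levels are in CPM, a gene's unique molecular identifiers (UMIs) per 1000000 of those in its class. The SGP gene tj was at 214 CPM in SGP-like cells against 2.12 CPM in germ cell-like cells of 8 to 20 h. The neuronal gene nSyb was at 252 CPM in neuron-like cells against 3.18 CPM in all other named cells. The germline gene zpg was at 389 CPM in germ cell-like cells of 8 to 20 h and at 93.2 CPM in SGP-like cells. These genes do not check the names of the SGP subtypes. Of the subtype markers, upd1, upd3 and hh were among the leading genes of the aMSGP-like cluster. Six4, which the paper uses to mark msSGPs, was among those of the cluster of no subtype. It was not among those of the msSGP-like cluster. Median depth ran from 1532 UMIs per cell in glia-like cells to 29053 in aMSGP-like cells, with 21195 in germ cell-like cells of 8 to 20 h.

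Each library was 1 sample, so no comparison has a spread between replicates and no test across samples was made. Intervals are exact 95% intervals (Poisson for levels, binomial for shares, conditional binomial for ratios) and cover counting error only. A gene is called higher or lower below when its level differed by at least 2-fold between both classes, the interval of the ratio left out 1 and both classes together held at least 20 of its UMIs. A gene could reach 20 UMIs through the class in which it was high, so counts of called genes describe the genes that passed and not all 32. No cell barcode was shared between libraries, apart from the 3022 nuclei that carry both RNA and ATAC counts. Cells called as doublets, 0.289% of the 0- to 8-h cells and 4.38% of the 8- to 20-h cells, were kept.

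Over the 2 scRNA-seq libraries the 32 genes differed widely in how much they were detected. dpr17 held 73 UMIs in the 0- to 8-h library and 33505 in the 8- to 20-h library. Fewer than 20 UMIs in both libraries together were held by 8 genes: dpr3 (8), dpr4 (5), dpr5 (16), dpr20 (17), DIP-eta (14), DIP-iota (4), DIP-zeta (12) and dpr15, which held 0. In the nuclear RNA dpr15 held 6 UMIs, and 12 of the 32 genes held fewer than 20. Of the 31 genes detected in cells, 25 had their highest level in neuron-like cells, 3 in muscle-like cells (dpr10, dpr19 and DIP-epsilon), 2 in germ cell-like cells of 8 to 20 h (dpr16 and DIP-alpha) and 1, dpr17, in aMSGP-like cells. For dpr10 the muscle-like level of 3.87 CPM and the neuron-like level of 3.86 CPM did not differ beyond counting error. Other first places were also narrow. DIP-alpha was at 18.9 CPM in germ cell-like and 17.4 CPM in neuron-like cells. dpr3 was at 1.93 CPM in neuron-like and 1.39 CPM in glia-like cells, and dpr21 at 1.93 CPM in neuron-like and 1.75 CPM in hemocyte-like cells. The share of all genes that were highest in each class was not counted.

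**Figure D1:**
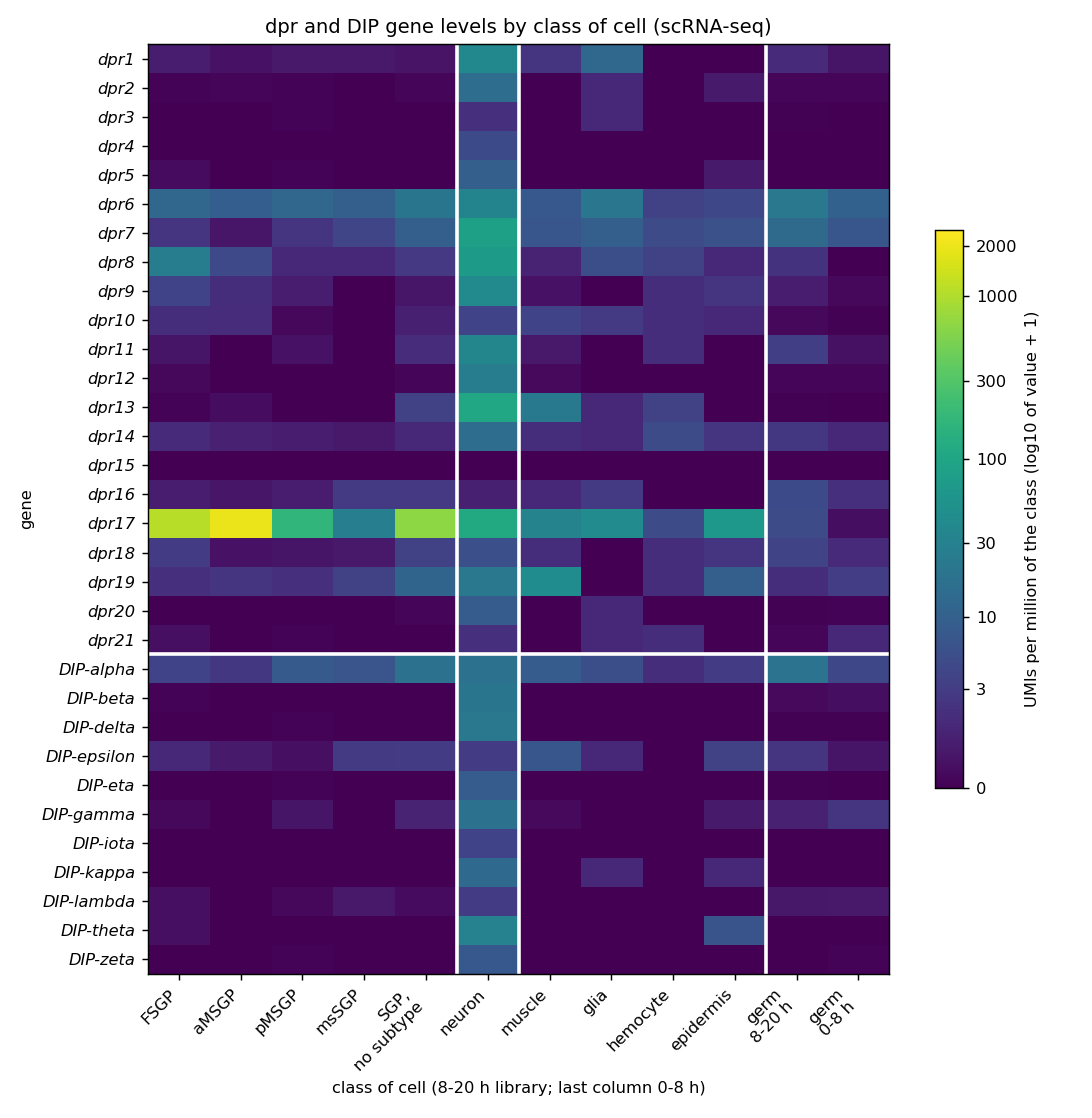
Level of each of the 32 genes (rows) in each class of cells (columns; the last column is the 0- to 8-h library, all others the 8- to 20-h library), in UMIs per 1000000 of the class on a log10 scale after adding 1. The neuron-like column is lit for most genes; in the SGP-like columns 1 row, dpr17, stands out, reaching 2014 CPM in aMSGP-like cells.

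In the somatic gonad dpr17 held most of the UMIs of both families. It stood at 2014 CPM in aMSGP-like cells (13320 UMIs), 661 CPM in the SGP-like cells of no subtype, 1081 CPM in those matched to FSGP, 171 CPM in pMSGP-like cells and 27.2 CPM in msSGP-like cells (39 UMIs). No 2 of these 5 levels had overlapping intervals, so their order (aMSGP, FSGP, no subtype, pMSGP, msSGP) exceeded counting error. Outside the SGPs it was at 116 CPM in neuron-like cells, 64.3 CPM in epidermis-like, 43.2 CPM in glia-like, 32.3 CPM in muscle-like and 5.26 CPM in hemocyte-like cells. In germ cell-like cells it was at 5.16 CPM at 8 to 20 h and at 0.346 CPM at 0 to 8 h (14 UMIs). The msSGP-like level was thus within the range of the other somatic classes and not above it. The summed SGP markers were at 1226 CPM in SGP-like cells, 443 CPM in neuron-like cells, 210 CPM in the other somatic classes and 58.8 CPM in germ cell-like cells of 8 to 20 h, and their part in the dpr17 counts of the last 3 was not tested. Of the 424 dpr17 UMIs in germ cell-like cells of 8 to 20 h, which lay in 300 of 3932 cells, 37 were in the 43 cells called as doublets.

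**Figure D2:**
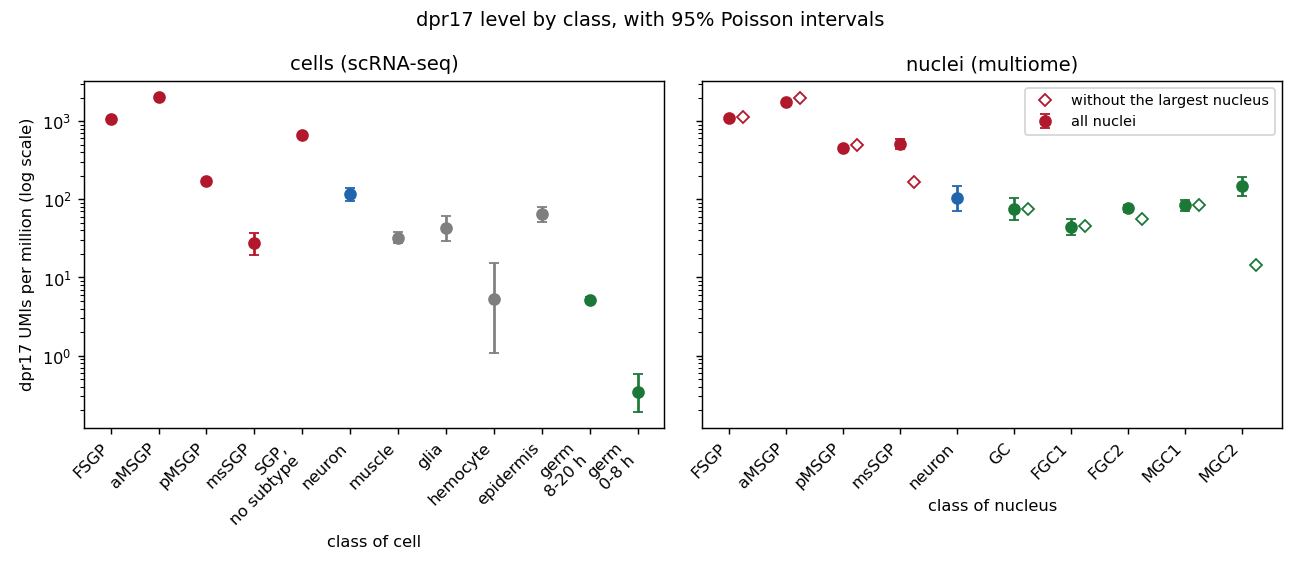
dpr17 in UMIs per 1000000 (log axis) by class, in cells (left) and in nuclei (right), with exact 95% Poisson intervals; open diamonds leave out the nucleus with the most UMIs of each class. In cells all SGP classes but msSGP lie above the neuron-like level of 116 CPM, and in nuclei the msSGP level of 507 CPM drops to 165 CPM without 1 nucleus.

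The gene, FBgn0051361, lies on chromosome 3R from 12094876 to 12111420 on the + strand (BDGP6 assembly, Ensembl annotation) and overlaps no other annotated gene, whereas dpr8, dpr10, dpr11, dpr16, DIP-alpha, DIP-beta and DIP-epsilon each overlap a coding gene on the same strand, with which reads could be shared. It has 3 annotated transcript starts, and the first lies within an ATAC peak. The 300 bases before this start, which lie inside that peak, and the central 300 bases of a peak inside an intron of the gene are shown because both peaks were more open in SGP nuclei than in germ nuclei. The same stretch of dpr10 is shown beside them because its start was the only other one of the 2 families called more accessible in SGP nuclei, that is, by at least 2-fold. The sequences are from the NCBI RefSeq genome of the same assembly, 5′ to 3′ on the strand of the gene.
dpr17, before the first start, chr3R:12094576-12094875 (+): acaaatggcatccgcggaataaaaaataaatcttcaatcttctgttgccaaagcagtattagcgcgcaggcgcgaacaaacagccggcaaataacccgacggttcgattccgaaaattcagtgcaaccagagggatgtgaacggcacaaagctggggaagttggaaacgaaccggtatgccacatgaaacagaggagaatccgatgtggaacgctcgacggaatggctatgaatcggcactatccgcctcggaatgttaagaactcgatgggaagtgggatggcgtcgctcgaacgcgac
dpr17, centre of the intronic peak, chr3R:12101633-12101932 (+): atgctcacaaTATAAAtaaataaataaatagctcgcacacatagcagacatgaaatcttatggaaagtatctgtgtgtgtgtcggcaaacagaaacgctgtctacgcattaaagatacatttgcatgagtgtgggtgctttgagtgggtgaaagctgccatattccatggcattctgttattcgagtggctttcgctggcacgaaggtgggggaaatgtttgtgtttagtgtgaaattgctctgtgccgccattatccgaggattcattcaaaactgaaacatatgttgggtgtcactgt
dpr10, before the start, chr3L:10186109-10186408 (-): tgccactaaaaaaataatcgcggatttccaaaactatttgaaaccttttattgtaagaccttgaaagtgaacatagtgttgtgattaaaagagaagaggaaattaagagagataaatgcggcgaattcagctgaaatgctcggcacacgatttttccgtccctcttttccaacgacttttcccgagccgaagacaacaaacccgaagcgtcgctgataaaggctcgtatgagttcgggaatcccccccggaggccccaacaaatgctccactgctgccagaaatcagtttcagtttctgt
Capitals mark a match to 1 of 4 short motifs searched on both strands, namely CGATA (the core bound by the insulator protein BEAF-32), GAGAGAGA, TATAAA and GGTCACAC (core promoter motif 1). TATAAA occurred once in the intronic peak, and none of the 4 occurred before dpr17 or dpr10. In the 300 bases before the first start of all 13945 protein-coding genes searched, the 4 motifs were found in 46.4%, 3.06%, 48.0% and 4.81%. In those of the 32 genes they were found in 12.5%, 9.38%, 21.9% and 0%, and in the central 300 bases of 19419 peaks in 32.1%, 4.96%, 21.3% and 1.80%.

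dpr17 took up nearly all of what the SGP-like cells held of the 2 families. It made up 98.7% of the UMIs of the 32 genes in aMSGP-like cells, 94.6% in FSGP-like, 89.1% in cells of no subtype, 84.1% in pMSGP-like and 44.3% in msSGP-like cells, whereas it made up 14.7% in neuron-like cells and 6.0% in germ cell-like cells of 8 to 20 h. These shares are of UMIs and make no correction for the length of a transcript. With dpr17 left out, the other 31 genes together were at 26.9 CPM in aMSGP-like cells, the lowest of the 4 matched subtypes, at 32.3 and 34.2 CPM in pMSGP-like and msSGP-like cells, and at 61.8 CPM in FSGP-like cells. The same sum was 672 CPM in neuron-like, 112 CPM in muscle-like and 80.8 CPM in germ cell-like cells of 8 to 20 h, above the 4 matched SGP subtypes, and 80.9 CPM in SGP-like cells of no subtype and 71.1 CPM in glia-like cells. In epidermis-like (47.1 CPM) and hemocyte-like cells (33.3 CPM) it was below the FSGP-like value.

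Within subtypes dpr17 varied from cell to cell. Per 10000 UMIs of a cell, its median was 20.3 in aMSGP-like cells (10th to 90th percentile, 10.3 to 34.6) and 5.66 in FSGP-like cells (0 to 26.7), and it was 0 in pMSGP-like and msSGP-like cells. The FSGP-like cells formed 2 clusters, with dpr17 at 1420 CPM in the cluster of 610 cells and at 739 CPM in that of 2209 cells, and the 2 pMSGP-like clusters had it at 213 and 168 CPM. Although dpr17 had no part in the clustering, it was among the 10 genes with the largest fold over the median cluster in 3 clusters, the aMSGP-like one, the smaller FSGP-like one and the one of no subtype.

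To compare shares of cells across depths, each cell was thinned to 1000 UMIs. At that depth a dpr17 UMI was found in 80.1% of aMSGP-like cells (73.6% to 85.6%), 46.1% of FSGP-like cells (44.2% to 48.0%), 45.2% of those of no subtype, 14.0% of pMSGP-like cells (12.5% to 15.7%) and 2.20% of msSGP-like cells (0.719% to 5.07%). The msSGP-like share fell within the range of the somatic classes outside the gonad, which ran from 0 of 97 hemocyte-like cells (a share of up to 3.73%) and 1.44% of glia-like cells to 4.52% of epidermis-like cells. Germ cell-like cells, which serve as the background here, showed it in 0.649% of cells at 8 to 20 h and in 0.0300% at 0 to 8 h. Unthinned, at median depths of 29053, 1878.5, 4784 and 2367 UMIs, the shares were 100% of aMSGP-like, 59.7% of FSGP-like, 32.6% of pMSGP-like and 7.82% of msSGP-like cells, against 7.63% of germ cell-like cells of 8 to 20 h at 21195 UMIs. Cells with fewer than 1000 UMIs were left out, 171 FSGP-like, 0 aMSGP-like, 77 pMSGP-like, 16 msSGP-like and 77 germ cell-like ones of 8 to 20 h. A UMI of any of the other 31 genes was found in 34.2% of neuron-like cells (28.2% to 40.5%), and 16.5% held at least 2 of them, whereas in SGP-like cells as a whole these shares were 4.59% and 0.166%.

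**Figure D3:**
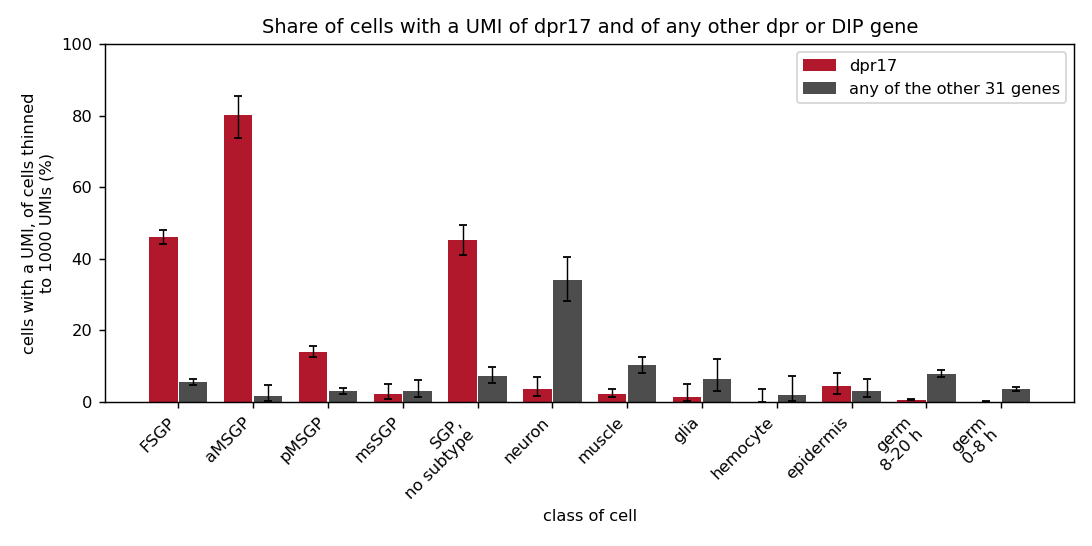
Percent of cells with at least 1 UMI of dpr17 (red) and of any of the other 31 genes (grey) after each cell was thinned to 1000 UMIs, by class, with exact 95% binomial intervals. The red bars are high in aMSGP-like (80.1%), FSGP-like (46.1%) and no-subtype cells (45.2%), and the grey bar is high in neuron-like cells (34.2%).

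SGP-like cells and germ cell-like cells, the cells that meet in the gonad, were compared within the 8- to 20-h library. Of 17 genes with enough UMIs, 6 were higher in SGP-like cells, where 19.1% of all 9344 genes tested were, and 9 were lower, where 27.7% were. dpr17 was at 850 CPM in SGP-like cells against 5.16 CPM in germ cell-like cells, a ratio of 165 (150 to 182). The others called higher in SGP-like cells were dpr13 (ratio 13.3), dpr10 (5.5), dpr8 (4.30), dpr19 (2.29) and dpr9 (2.24), all at levels under 10 CPM. The calls of dpr13 and dpr19 rested largely on the SGP-like cells of no subtype. With doublets left out, dpr13 had 28 UMIs there against 3 in the matched SGP-like cells (0.113 CPM). dpr19 was at 15.0 CPM there against 2.04 CPM in the matched ones. In 3764 of the germ cell-like cells the 2 genes were at 0.0634 and 1.70 CPM. dpr11, whose protein pairs with DIP-gamma in the visual system, was at 0.652 CPM in SGP-like cells against 3.22 CPM in germ cell-like cells. dpr16 was at 1.25 CPM in SGP-like cells against 4.85 CPM in germ cell-like cells, and dpr7 at 3.65 CPM against 13.8 CPM. Among the DIP genes, DIP-alpha was at 7.80 CPM in SGP-like cells against 18.9 CPM in germ cell-like cells, and DIP-gamma and DIP-lambda were also lower in SGP-like cells, at ratios of 0.429 and 0.358. dpr1, dpr18 and dpr14 completed the lower genes, at ratios from 0.443 to 0.490. The median log2 ratio of the 17 genes was -1.03, beside -0.48 over all genes. The size of the dpr17 ratio depended on the setting: it was 50.1 with 50 principal components and a Leiden resolution of 2 and 91.5 as a mean over cells. DIP-alpha and dpr7 moved to 0.239 and 0.134 with the same other clustering and to 0.232 and 0.144 as means over cells.

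Against neuron-like cells, dpr17 alone of 21 genes was higher in SGP-like cells, at 850 CPM against 116 CPM (ratio 7.35, 6.14 to 8.87), where 11.9% of 8541 genes were. Of the 21, 17 were lower in SGP-like cells, where 16.5% of all genes were, and dpr10, dpr16 and DIP-epsilon were not called. Among these, dpr2, dpr12, DIP-beta, DIP-delta, DIP-gamma and DIP-theta held fewer than 20 UMIs in SGP-like cells and had enough UMIs for a call only with those of neuron-like cells, so their place among the lower genes is a description of that filter as well. DIP-delta and DIP-beta each had 1 UMI in the 5692 SGP-like cells, against 23 UMIs of DIP-delta and 21 of DIP-beta in the 325 neuron-like cells. At the other end, dpr6 (13.3 CPM in SGP-like cells against 32.8 CPM in neuron-like cells) and DIP-alpha (7.80 CPM against 17.4 CPM) were lower by less than 3-fold. As a mean over cells the dpr17 ratio was 12.6.

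Against the other somatic classes together (muscle-like, glia-like, hemocyte-like and epidermis-like), 2 of 15 genes were higher in SGP-like cells, where 12.0% of 8833 genes were, and 5 were lower, where 15.8% were. dpr17 was at 850 CPM in SGP-like cells against 37.3 CPM in the other somatic cells (ratio 22.8, 20.2 to 25.8), and dpr8 at 9.26 CPM against 1.85 CPM (ratio 5.0). The 5 lower genes were dpr13 (ratio 0.0546), dpr19 (0.135), dpr1 (0.251), DIP-epsilon (0.262) and dpr10 (0.341). The first 2 were found in muscle-like cells, where dpr19 stood at 44.6 CPM and dpr13 at 23.0 CPM. Leaving muscle-like and neuron-like cells aside, the highest level in a named class was 11.5 CPM for dpr19 and 3.51 CPM for dpr13. DIP-epsilon was also highest in muscle-like cells, at 7.06 CPM. The dpr13 ratio was 0.00991 with the other clustering.

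**Figure D4:**
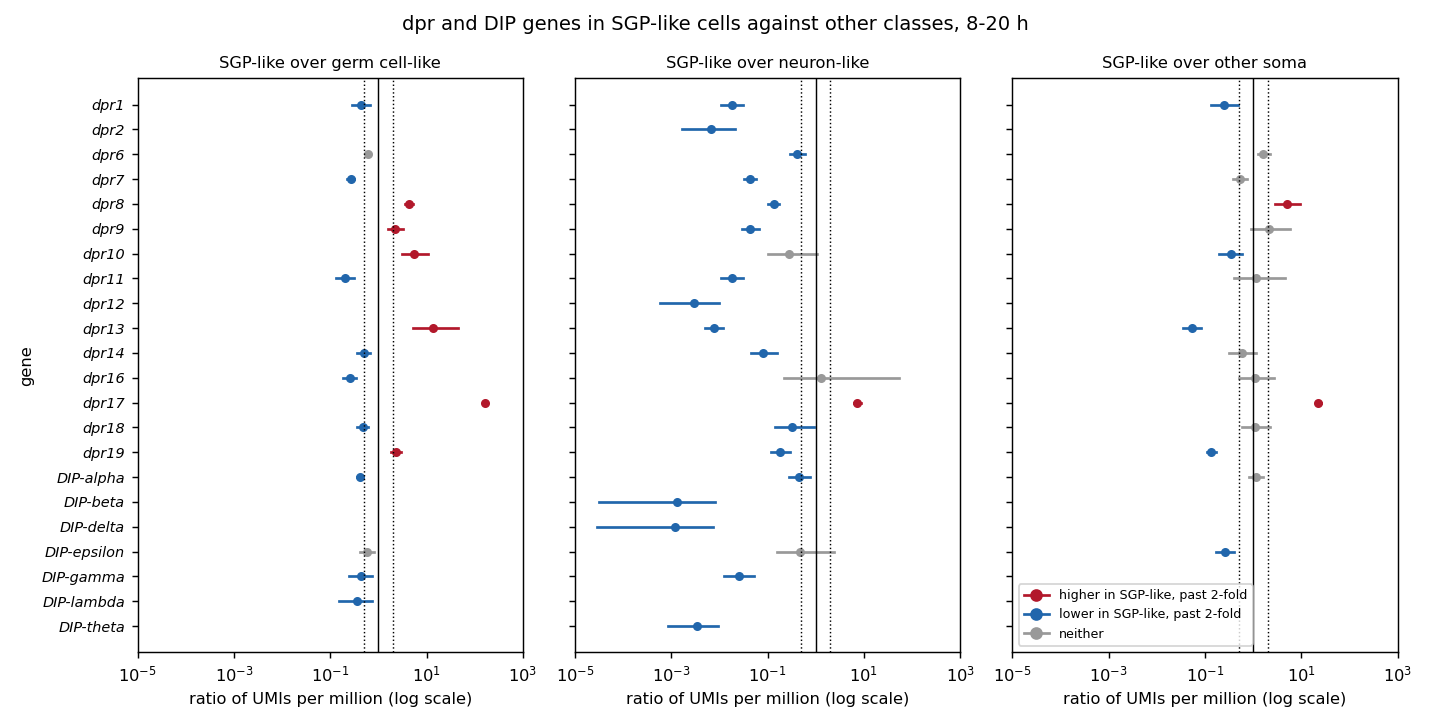
Ratio of UMIs per 1000000 (log axis) of each gene with at least 20 UMIs in SGP-like cells over germ cell-like (left), neuron-like (middle) and other somatic cells (right) of the 8- to 20-h library, with exact 95% intervals; dotted lines mark 2-fold and colours the calls. dpr17 lies to the right in all 3 panels (165, 7.35 and 22.8), and in the middle panel the called genes other than dpr17 lie to the left.

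Each SGP subtype was then set against all other SGP-like cells, with 15 genes tested each time. In FSGP-like cells dpr8 was at 25.6 CPM against 2.57 CPM in the other SGP-like cells (285 and 70 UMIs; ratio 9.97, 7.65 to 13.1), and dpr9 (ratio 3.81) and dpr10 (2.33) were higher too, 3 genes where 7.68% of 8303 genes were. dpr13, dpr19 and DIP-alpha were lower in FSGP-like cells, where 24.8% of genes were. dpr17 itself was at 1081 CPM in FSGP-like cells against 756 CPM in the rest, which is under 2-fold (ratio 1.43), and as a mean over cells its ratio was 2.11. In aMSGP-like cells dpr17 alone was higher, at 2014 CPM against 608 CPM (ratio 3.31, 3.24 to 3.39), where 6.08% of genes were. dpr11 (0 UMIs against 25), dpr7, dpr18, DIP-alpha and dpr8 were lower in aMSGP-like cells, where 20.3% of genes were.

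No gene of the families was higher in the posterior or the male-specific male SGPs, where 5.58% and 5.14% of all genes were. In pMSGP-like cells 8 of the 15 were lower, where 14.1% of all genes were: dpr17 was at 171 CPM against 1128 CPM in the other SGP-like cells (ratio 0.152), dpr8 at 1.44 CPM against 12.5 CPM, dpr13 had 0 UMIs against 31, and dpr10, DIP-epsilon, dpr18, dpr19 and dpr9 were at ratios from 0.125 to 0.414. Some marker lists of other cell types were low in the same cells. The neuron markers summed to 76.9 CPM in pMSGP-like cells, against 151 CPM (msSGP-like), 158 CPM (aMSGP-like) and 185 CPM (FSGP-like) in the other subtypes. The muscle markers summed to 181 CPM in pMSGP-like cells, against 361 to 407 CPM in those 3. The glia, midgut and epidermis sums were also lowest there. The germline sum was not, at 439 CPM in pMSGP-like cells against 209 CPM (aMSGP-like), 461 CPM (FSGP-like) and 1014 CPM (msSGP-like). The hemocyte and trachea sums also lay between those of other subtypes, and the fat body sum was the highest of the 4, at 62.1 CPM. Their part in these calls was not tested. In msSGP-like cells dpr17 was at 27.2 CPM against 882 CPM in the rest (ratio 0.0308, 0.0219 to 0.0422) and dpr8 was lower as well, where 7.01% of genes were.

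The 564 SGP-like cells of no subtype were set against the matched ones in the same way. Of 15 genes, 8 were higher there than in the other SGP-like cells, where 23.3% of all genes were: dpr13 (3.49 CPM against 0.0990 CPM), dpr19 (11.5 CPM against 2.08 CPM), dpr11, dpr7, DIP-alpha (17.3 CPM against 5.28 CPM), DIP-epsilon, dpr16 and dpr18. dpr8 and dpr9 were lower, where 12.3% were. Of the same cells 15.8% were called as doublets, and the 11 germline markers summed to 1346 CPM in them. These markers summed to 2081 CPM in germ cell-like cells of 8 to 20 h. In the matched SGP-like cells they were at 1014 CPM (msSGP), 461 CPM (FSGP), 439 CPM (pMSGP) and 209 CPM (aMSGP), so a raised sum was not particular to the cells of no subtype. The part of doublets and germline RNA in these calls was not tested. Without the doublets 7 of the 8 were still higher, and dpr11 was not, having 8 UMIs left in both groups together. The 10 muscle markers summed to 251 CPM in these cells and to 15709 CPM in muscle-like cells. dpr17 was at 661 CPM against 900 CPM (ratio 0.734), a difference that turned round to 1.28 with the other clustering and to 1.42 as a mean over cells, and it was not called under any of these.

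Neurons are the cells in which these families are best known. The 325 neuron-like cells held most of the 32 genes at their highest level, a count with no share over all genes beside it. Of 23 genes with enough UMIs, 17 were higher in neuron-like cells than in all other named cells together, where 13.0% of 9790 genes were, and dpr17 alone was lower (116 CPM against 261 CPM), where 12.7% were. The median log2 ratio was 3.69 for the 23 genes and -0.16 over all genes. Outside neuron-like cells dpr2, dpr12, dpr21, DIP-beta, DIP-delta and DIP-theta held fewer than 20 UMIs and had enough for a call only with those of neuron-like cells. DIP-delta had 23 UMIs in the 325 neuron-like cells against 5 in the 11063 other cells. DIP-theta was at 30.8 CPM in neuron-like cells against 0.118 CPM elsewhere, dpr12 at 26.0 CPM against 0.102 CPM, DIP-beta at 20.2 CPM against 0.141 CPM and dpr2 at 15.4 CPM against 0.110 CPM. Elsewhere in this library the highest of these 5 was DIP-theta in epidermis-like cells, at 6.73 CPM on 9 UMIs.

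A second set was higher in neuron-like cells but detected elsewhere too. dpr13 was at 105 CPM in neuron-like cells against 1.10 CPM in the others, dpr9 at 41.5 CPM against 1.11 CPM, and dpr1, the founding gene of the family and named for the salt-evoked proboscis response of the adult fly, at 37.6 CPM against 1.34 CPM. DIP-gamma (17.4 CPM against 0.815 CPM), dpr8 (69.4 CPM against 4.27 CPM), dpr11 (35.7 CPM against 2.31 CPM), dpr7 (85.8 CPM against 10.4 CPM), dpr14 and dpr19 followed, at ratios from 21.3 down to 5.54. dpr21, dpr10 and DIP-lambda were called on 2, 4 and 3 UMIs in neuron-like cells. dpr6, dpr16, dpr18, DIP-alpha and DIP-epsilon were tested and not called, with dpr6 at 32.8 CPM in neuron-like cells against 18.7 CPM and DIP-alpha at 17.4 CPM against 14.9 CPM. As means over cells the ratios of dpr7, dpr11 and dpr12 were 19.8, 39.8 and 634 in place of 8.26, 15.5 and 255.

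The rarest members were mostly seen in the same cells. Of the UMIs in the 8- to 20-h library, neuron-like cells held all 5 of dpr4, all 4 of DIP-iota, 8 of 9 of DIP-zeta, 14 of 19 of DIP-kappa, 10 of 16 of dpr5, 9 of 14 of dpr20, 9 of 14 of DIP-eta and 2 of 8 of dpr3. These counts were too low for a call. In the thinned cells dpr7 was the gene seen most often in neuron-like cells, in 11.9% of them, against 0.600% of the other named cells, and dpr13 was seen in 7.41%.

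Germ cells held a few members at low levels, and these were compared between the 8- to 20-h and the 0- to 8-h library. The 2 times are 2 libraries from separate experiments, so time, library and experiment cannot be told apart. Of 17 genes, 10 were higher at 8 to 20 h, where 23.8% of 9099 genes were, and 2 were lower, where 14.2% were. dpr6 was at 22.1 CPM at 8 to 20 h against 10.5 CPM at 0 to 8 h, DIP-alpha at 18.9 CPM against 4.54 CPM (ratio 4.17, 3.58 to 4.89), dpr16 at 4.85 CPM against 1.90 CPM, dpr18 at 3.93 CPM against 1.58 CPM and dpr11 at 3.22 CPM against 0.420 CPM. DIP-epsilon, dpr1 and dpr9 were higher at ratios from 2.82 to 4.65, and dpr17 was at 5.16 CPM against 0.346 CPM. The 8- to 20-h library also held 5692 SGP-like cells, whereas the 0- to 8-h library held 1 FSGP-like cell and 5 of no subtype. The part of RNA from SGP-like cells in the dpr17 difference was not tested. dpr8 had 177 UMIs at 8 to 20 h against 1 at 0 to 8 h (ratio 87.2, 15.5 to 3465). dpr21 fell to 0.146 CPM at 8 to 20 h, against 1.43 CPM at 0 to 8 h, and DIP-gamma to 1.03 CPM against 2.20 CPM. dpr7, at 13.8 CPM against 7.16 CPM, stayed under 2-fold.

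One germ cell-like cluster stood apart in these genes, which was noticed after the values had been seen. It held 168 cells of 8 to 20 h and 188 cells of 0 to 8 h, and sisA, Tom, egr, Corp and the cell death gene hid were among its leading genes. Its 8- to 20-h cells had dpr8 at 36.2 CPM against 0.723 CPM in the other 3764 germ cell-like cells of that library, so that 120 of the 177 dpr8 UMIs lay in them. dpr11 was at 34.1 CPM in these cells against 1.93 CPM in the others, and DIP-epsilon at 16.6 CPM against 1.79 CPM. DIP-alpha, at 17.5 CPM against 19.0 CPM, and dpr6, at 18.1 CPM against 22.3 CPM, did not differ beyond counting error. In the cluster's cells of 0 to 8 h dpr8 had 0 UMIs of 1807721 and dpr11 had 2.

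Known binding partners were also read side by side. Dpr17 binds DIP-gamma, and DIP-gamma was at 0 to 1.12 CPM across the 5 SGP-like classes, at 1.03 CPM in germ cell-like cells of 8 to 20 h and at 17.4 CPM in neuron-like cells. The other partners of DIP-gamma were low in the gonad as well, with dpr16 at 4.85 CPM in germ cell-like cells of 8 to 20 h, dpr11 at 3.22 CPM there and dpr15 at 0 UMIs in all cells. DIP-alpha and its ligands dpr6 and dpr10 were measured at 18.9, 22.1 and 0.195 CPM in germ cell-like cells of 8 to 20 h and at 7.80, 13.3 and 1.07 CPM in SGP-like cells. In the pair of DIP-delta and dpr12, which is known from the mushroom body of the fly, both were in neuron-like cells, at 22.2 and 26.0 CPM, and both were under 0.1 CPM in SGP-like cells.

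The nuclear RNA of the multiome library gave a second look at these genes. Nuclei were placed in the clusters of the study by solving its table of cluster means. This gave 584 SGP nuclei (314 FSGP, 94 aMSGP, 125 pMSGP and 51 msSGP) and 1422 germ nuclei. By markers, 104 neuron-like nuclei were found among the 1016 nuclei placed in no cluster of the study. Any nucleus placed in a cluster of the study was counted with the other nuclei, whatever its markers. dpr17 was at 1761 CPM in aMSGP, 1101 CPM in FSGP, 460 CPM in pMSGP and 507 CPM in msSGP nuclei. The msSGP value rested on 1 nucleus, which held 135 of its 177 UMIs, and it was 165 CPM without it. In germ nuclei dpr17 was at 44.4 CPM (FGC1), 76.6 CPM (FGC2), 83.3 CPM (MGC1) and 75.2 CPM (GC), and at 147 CPM in MGC2, where 1 nucleus held 80.2% of all UMIs. After thinning to 1000 UMIs it was found in 78.7% of aMSGP, 50.6% of FSGP, 44.8% of pMSGP and 7.84% of msSGP nuclei, against 7.24% of germ nuclei, at median depths of 2237, 1993, 2910, 2517 and 2458.5 UMIs. The order aMSGP, FSGP, pMSGP was that of the cells, while pMSGP nuclei stood closer to FSGP nuclei than pMSGP-like cells stood to FSGP-like cells.

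In nuclei 2 of 15 genes were higher in SGPs than in germ nuclei, where 13.5% of 8329 genes were: dpr17 at 799 CPM in SGP nuclei against 74.7 CPM in germ nuclei (ratio 10.7, 9.92 to 11.5) and dpr10 at 2.03 CPM against 0.712 CPM. Another 5 were lower, where 13.4% were, and 4 of these were DIP genes: DIP-gamma (ratio 0.0727), DIP-lambda (10.4 CPM in SGP nuclei against 40.5 CPM in germ nuclei), DIP-alpha (13.2 CPM against 46.7 CPM) and DIP-epsilon (0.360), with dpr16 (0.333). The germ values of DIP-alpha and DIP-lambda came mostly from the female clusters: both were at 9.98 CPM in MGC1 nuclei, and at 0 and 2.83 CPM in MGC2 nuclei, so that SGP nuclei were not lower than male germ nuclei in either gene. With clusters made here in place of those of the study, 4 of the 7 calls were made. DIP-lambda differed between the assays, with 40.5 CPM in germ nuclei and 0.657 CPM in germ cell-like cells of 8 to 20 h. It is the longest of the 32 genes, at 379 kb, and no source used here says whether introns were counted in the nuclei.

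Among SGP nuclei, 6 of 9 genes were higher in FSGP than in the other SGP nuclei, where 7.55% of 7540 genes were, and 0 were lower, where 13.7% were. Most UMIs of the other SGP nuclei were from pMSGP (6247438, against 760278 in aMSGP and 349341 in msSGP). The FSGP calls and the pMSGP calls below thus rest largely on the same UMIs and are not separate results. dpr8 was at 20.6 CPM in FSGP nuclei against 1.09 CPM in the others (ratio 19.0, 9.27 to 45.1), and dpr10 at 4.45 CPM against 0.408 CPM, and both were also called higher in FSGP-like cells. dpr18, DIP-lambda, dpr21 and dpr6 were higher in FSGP nuclei, at ratios from 6.32 down to 2.35, but were not called in FSGP-like cells, where dpr6 had a ratio of 0.908 and dpr18 of 1.96 and the others held fewer than 20 UMIs. The 12 neuron markers summed to 127 CPM in FSGP nuclei and, in the male subtypes, to 48.7 CPM (aMSGP), 51.4 CPM (pMSGP) and 91.6 CPM (msSGP), and their part in these calls was not tested. In aMSGP nuclei dpr17 was higher (ratio 2.39, 2.26 to 2.54), where 4.18% of genes were, and dpr8 was lower, where 8.83% were. In pMSGP nuclei 0 were higher, where 13.6% were, and 7 were lower, where 9.69% were, dpr17 among them at 460 CPM against 1150 CPM. The median pMSGP nucleus held 2910 UMIs and the largest 713577, so large nuclei weigh heavily in the pooled pMSGP levels. Without the largest nucleus dpr17 was at 495 CPM in pMSGP. The shares of thinned nuclei given above weigh each nucleus alike. In msSGP nuclei none of the 9 was called in either direction, where 6.74% and 6.49% were, and dpr17 there was at 507 CPM with the nucleus named above and at 165 CPM without it. Over the 4 subtypes there were 15 calls, and 30 when levels were taken as means over nuclei. As a mean over nuclei the FSGP ratio of dpr8 was 5.59 and that of dpr17 was 1.12 in place of 1.85. In neuron-like nuclei 15 of 20 genes were higher than in the other nuclei, where 9.96% of 8837 genes were, among them dpr9 and dpr1, and also dpr13 (75.9 CPM against 0.297 CPM) and DIP-beta, which held 8 and 13 UMIs outside neuron-like nuclei. dpr17 alone was lower there (103 CPM against 424 CPM), where 4.07% were.

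The germ nuclei of the 2 sexes were compared after their values had been seen. In the 544 female nuclei (FGC1 and FGC2) 6 of 10 genes were higher than in the 786 male nuclei (MGC1 and MGC2), where 14.8% of 7514 genes were, and 0 were lower, where 1.68% were. DIP-alpha was at 62.2 CPM in female nuclei against 8.48 CPM in male nuclei (432 and 20 UMIs; ratio 7.33, 4.69 to 12.1), and DIP-lambda at 51.7 CPM against 8.91 CPM (ratio 5.80, 3.74 to 9.49). dpr8 was at 9.65 CPM in female nuclei against 0.424 CPM in male nuclei, where it had 1 UMI, and dpr21, dpr16 and dpr6 were at ratios from 5.26 down to 2.05. All 6 were still called without the largest nucleus of each cluster. DIP-alpha and dpr8 are X-linked, and 20.1% of 1275 X-linked and 13.8% of 5725 autosomal genes, those of the tested genes that were placed on a chromosome, were higher in female nuclei, with median ratios of 1.39 and 1.22. dpr17 was at 68.5 CPM in female nuclei against 92.9 CPM in male nuclei (ratio 0.738). Median depth was 8887.5 and 10580.5 UMIs in FGC1 and FGC2 against 1607 and 1787.5 in MGC1 and MGC2, and the 12 neuron markers summed to 138 and 203 CPM in FGC1 and FGC2 against 55.4 and 11.3 CPM in MGC1 and MGC2. In neuron-like nuclei dpr8 was at 131 CPM, dpr6 at 72.4 CPM and dpr21 at 48.3 CPM. Stage also differed between the sexes. Of the 786 male nuclei 754 were MGC1, the earlier stage, while 390 of the 544 female nuclei were FGC2, the later one. In these pooled groups sex and stage cannot be fully told apart. In the earlier stage alone, without the largest nucleus, DIP-alpha was at 46.5 CPM in FGC1 against 9.68 CPM in MGC1. DIP-lambda was at 60.8 CPM against 10.2 CPM there. The part of depth and of neuronal RNA in these ratios was not tested.

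Chromatin was read at the transcript starts, counting the peaks within 250 bp of any annotated start. A peak lay there in 20 of the 32 genes (62.5%), as in 57.6% of 13968 protein-coding genes. Of the 20, 2 were more accessible in SGP nuclei than in germ nuclei, where 3.45% of 8051 genes were, and 4 were less accessible, where 4.27% were. The dpr17 start had 252 ATAC counts in SGP nuclei against 50 in germ nuclei, or 66.2 against 15.0 counts per 1000000 (ratio 4.40, 3.24 to 6.09). The dpr10 start was at 62.6 counts per 1000000 in SGP nuclei against 30.4 in germ nuclei (ratio 2.06), and both genes were also higher in the RNA of SGP nuclei. The 4 less accessible starts in SGP nuclei were those of dpr1, dpr5, dpr16 and DIP-theta, at ratios from 0.273 to 0.456. Of the 3322623 ATAC counts in germ nuclei, FGC1 held 803823 and FGC2 1965480, so these ratios describe mostly female germ nuclei. In male MGC1 nuclei the starts of dpr17 (21.6 counts per 1000000) and DIP-theta (35.1) differed from SGP nuclei in the same direction beyond counting error. For dpr10 (40.5), dpr1 (16.2), dpr5 (13.5) and dpr16 (78.2) the MGC1 interval took in the SGP value. The starts of dpr9, dpr18, dpr6, DIP-epsilon and dpr14 were more accessible by less than 2-fold, at ratios from 1.71 down to 1.16 with intervals above 1. The dpr8 start, at 43.1 counts per 1000000 in SGP nuclei against 77.0 in germ nuclei (ratio 0.559), was not called. Median depth was 2774 ATAC counts in SGP nuclei and 409.5 in germ nuclei, with 215 in MGC1.

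In or just before dpr17 lay 5 peaks, and 2 of them differed between SGP and germ nuclei by 2-fold or more. The peak at the start (12094476 to 12094971) had the values given above, and the intronic peak (12101346 to 12102220, 874 bp long, 6.91 kb into the gene and touching no annotated exon) was at 73.1 counts per 1000000 in SGP nuclei against 20.5 in germ nuclei (ratio 3.57, 2.73 to 4.73). The peak 4.39 kb before the start was at 40.0 counts per 1000000 in SGP nuclei against 23.8 in germ nuclei, and the 2 peaks further into the gene were at ratios of 1.53 and 0.639, none of them past 2-fold. No dpr17 peak was called higher or lower in an SGP subtype than in the other SGP nuclei. The start peak had ratios of 1.58 in aMSGP, 0.888 in FSGP, 0.934 in pMSGP and 0.835 in msSGP nuclei. The aMSGP interval of 1.10 to 2.22 lay above 1 and took in 2-fold, so the start was more accessible there by less than the limit of a call. The msSGP ratio rested on 13 counts and had an interval of 0.438 to 1.46, which takes in a 2-fold difference. In the 2 peaks further into the gene, ratios past 2-fold were seen on 0 to 2 counts in a subtype (0.280 in aMSGP, 0.487 and 0 in msSGP nuclei), all with intervals that take in 1.

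**Figure D5:**
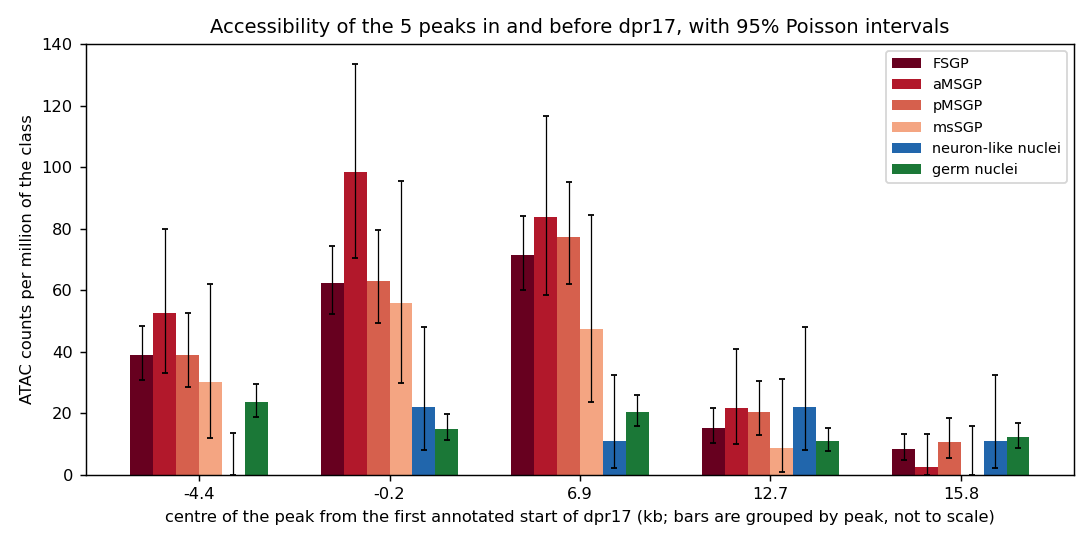
ATAC counts per 1000000 in the 5 peaks in and before dpr17, by class of nuclei with exact 95% Poisson intervals; groups of bars are ordered by the distance of the peak from the first annotated start in kb and are not spaced to scale. In the peak at the start (66.2 in all SGP nuclei against 15.0 in germ nuclei) and in the intronic peak (73.1 against 20.5) the bars of all 4 SGP subtypes stand above the germ bar, while the interval of each subtype overlaps those of the others.

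Across SGP subtypes 0 of 19 starts were called in FSGP nuclei, where 1.04% and 1.66% of 8004 genes were higher and lower. In aMSGP nuclei DIP-theta was higher, where 0.750% of genes were (2.10% were lower), in pMSGP nuclei dpr1 was higher and dpr10 lower, where 1.19% and 0.787% were, and in msSGP nuclei dpr11 was higher on 8 counts, where 1.16% were (1.77% were lower). In neuron-like nuclei 8 of 20 starts were more accessible than in the other nuclei, where 2.63% of genes were, and 0 were less accessible, where 4.06% were. They were dpr5 (ratio 5.76), DIP-gamma (5.39), DIP-zeta (4.35), DIP-eta (3.95), dpr20 (2.76), dpr11 (2.62), dpr12 (2.18) and DIP-theta (2.09). Among these, dpr5, DIP-zeta, DIP-eta and dpr20 were too rare in RNA for a call, and their starts were open in the class that held most of their few UMIs.

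Other families of surface proteins, such as the Beat and Side families, the Robo receptors, the cadherins, the fasciclins and the Dscams, were listed for comparison. Not all of the listed genes were neuronal in these cells, and cDIP had 0 UMIs in neuron-like cells. In neuron-like cells 31 of 47 of them were higher, where 13.0% of all genes were, and 0 lower, where 12.7% were, led by robo3, beat-Va and beat-Ia. In SGP-like cells 27 of 39 were higher than in germ cell-like cells, where 19.1% of all genes were, and 4 were lower, where 27.7% were. The higher genes were led by cDIP (2.01 CPM in SGP-like cells on 77 UMIs against 0), Dscam2 (143 CPM against 0.511 CPM) and CadN (170 CPM against 0.681 CPM). Against neuron-like cells 7 of 44 were higher in SGP-like cells, where 11.9% were, and 25 lower, where 16.5% were, and against the other somatic classes 14 of 38 were higher, where 12.0% were, and 11 lower, where 15.8% were. Between subtypes, Dscam2 was at 378 CPM in FSGP-like cells against 47.5 CPM in the other SGP-like cells, and CadN at 746 CPM in aMSGP-like cells against 50.3 CPM. In msSGP-like cells, where dpr17 was low, side was at 86.5 CPM against 2.71 CPM in the rest.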

How the data were processed

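The authors deposited UMI counts per gene and cell from 10x Genomics 3′ libraries made with Cell Ranger 6.1.2, nuclear UMI counts and ATAC counts per peak from Cell Ranger ARC 1.0.0 (with Signac in the submitters' processing notes), all on BDGP6 and none normalized per cell. Whether an ATAC count is a fragment or a fragment end could not be learned from the labels or the methods. The aggregated matrix of both scRNA-seq libraries was used here. It held 42374849 UMIs in 3802 cells of 0 to 8 h and 132310415 in 12569 cells of 8 to 20 h, and the multiome held 27225261 nuclear UMIs and 11524249 ATAC counts in 3022 nuclei, which set the width of the intervals given.

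Cells were clustered with scanpy 1.11.5 and igraph 0.11.9 (2000 variable genes without the 32 described, 150 principal components for cells and 50 for nuclei, 20 neighbours, Leiden resolution 1, seed 1). A class was named where at least 3 of its markers were raised, and SGP clusters were matched to subtypes at a correlation of at least 0.4 and a gap of at least 0.1 over 1090 genes, limits that were chosen after the data had been seen. Of the nuclei, 2006 of 3022 were placed by the study's cluster means over 1999 genes, and 1701 of 1701 sums left out of that solution came out exactly. Doublets were called with Scrublet and kept.

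UMIs were summed per class, and ratios were calculated with exact conditional intervals (scipy 1.17.1, Python 3.11.15). No test across samples was possible with 1 library per group. The placement of nuclei was also run on random groups of the nuclei, of the same sizes as the clusters. Genes were named where they were called (at most 8 per direction), were among the 5 highest of a class with at least 20 UMIs, or belonged to a known binding pair; for other surface families the 3 largest ratios were used. The genes and lists were chosen with earlier results of these data known. Alternatives were another clustering, doublets left out, the 32 genes left in the clustering, the separate matrices of both libraries, a 3-fold limit, means over cells or nuclei, 10 or 50 UMIs as the minimum, the largest nucleus left out, other clusters of nuclei, thinning to 2000 UMIs or none, and, for ATAC, a window of 1000 bp or nuclei with at least 1000 counts.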

Additional observations from a re-analysis of the deposited data

How the results depend on the processing

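Of 68 alternative counts of called genes, 59 stayed within 1.5 times the value given, and no called result reversed its direction. At 3-fold the calls between SGP-like and germ cell-like cells were 7 in place of 15, and those between germ cell-like cells of 8 to 20 h and 0 to 8 h were 7 in place of 12. With at least 50 UMIs the calls were 4 in place of 7 between SGP and germ nuclei, 9 in place of 15 over the SGP subtypes of nuclei and 8 in place of 16 for neuron-like nuclei. With clusters of nuclei made here, 4 calls were made between SGP and germ nuclei in place of 7. As a mean over nuclei the SGP subtypes had 30 calls in place of 15. The share of SGP-like cells with a dpr17 UMI was 43.6% at 2000 UMIs and 51.4% without thinning, in place of 34.6%. Of 143 alternative ratios for 34 results, 48 moved beyond their intervals and 18 by over 1.5 times. Alternative shares of cells were less stable: 11 moved and 1 stayed the same. The cause was not tested in any of these. No paired analysis was possible because each group was 1 library. Depth limits what can be said of the 8 genes with fewer than 20 UMIs, and of msSGP nuclei, of which there were 51.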
